A study of Canis lupus familiaris with 8 samples.

Results

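The genes described here encode the constitutive proteasome, the protease that most cells use to degrade proteins tagged with ubiquitin. Members were all rows of the deposited expression table whose symbol is PSMA, PSMB, PSMC or PSMD followed by a number, leaving out PSMB8, PSMB9 and PSMB10, the inducible subunits. This rule took 29 of the 30424 listed genes, of which 12 belong to the 20S core particle (5 PSMA and 7 PSMB rows) and 17 to the 19S regulatory particle (4 PSMC and 13 PSMD rows). PSMA8, an alpha subunit known from testis, was listed at 0 in every library, so 28 members passed the filter on low values, 11 of the 20S and 17 of the 19S. PSMD5, PSMD9 and PSMD10 carry the names of 19S members but encode chaperones that assemble its base and leave the finished particle. PSMA1, PSMA2, PSMA4, PSMC5, PSMC6 and PSMD6 were not analysed here, so the alpha ring is represented by 4 of its genes.

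The 20S core is a barrel of stacked rings. Its outer alpha rings form a gate, and its inner beta rings hold the proteolytic sites of PSMB5, PSMB6 and PSMB7. The 19S particle caps the barrel, with a base of PSMC ATPases that unfold substrates and thread them through the gate, and a lid of PSMD subunits in which PSMD14 cuts ubiquitin off. Many tumour cells depend on this machine for protein turnover, and its genes are known to be co-regulated through the transcription factor NFE2L1.

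RNA sequencing measured 8 libraries of cultured dog cells, given as TPM, the share of each library's transcripts that a gene holds, corrected for length and scaled to a fixed total. JuB2 is a dog cell line from hemangiosarcoma, a cancer of cells that resemble vessel lining. Its cells carried a short hairpin RNA (shRNA) aimed at KDM2B, a histone demethylase, in 3 libraries and a scramble shRNA in 3, and 1 library was untreated JuB2. A single untreated library is labelled EC, for normal canine endothelial cells, with the source name CnAOEC. All 6 shRNA libraries come from the 1 line JuB2 and carry a hairpin, and no label says that replicates are separate cultures, so each p-value reflects just the scatter among the sequenced samples, which could be technical.

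The libraries listed between 12639 and 13452 genes above 0, and the depth behind them is unknown because TPM keeps none. KDM2B itself goes against its label. It averaged 19.6 ± 1.32 TPM in the KDM2B-shRNA-labelled libraries and 13.97 ± 1.06 TPM in scramble (SD, n = 3 each). On the log2(TPM + 1) scale used below the gap was 0.46 ± 0.11 (SE, limma adjusted p = 0.0101). Directions below are therefore those of the KDM2B-shRNA-labelled libraries and not of a measured loss of the transcript. In untreated JuB2 KDM2B was at 17.65 TPM, above every scramble library and below every KDM2B-shRNA-labelled library. Of 10 endothelial markers 9 had a row. Untreated JuB2 held 3 of these above 1 TPM and EC held 4. ERG was at 1.28 TPM in untreated JuB2 and 21.93 TPM in EC, and TEK was at 0 and 2.38 TPM. EGFL7 and KDR went the other way, at 11.37 and 4.77 TPM in untreated JuB2 and 1.93 and 1.24 TPM in EC. The defining PECAM1, VWF and TIE1 were listed at 0 in both, and CDH5 was at 0 in untreated JuB2 and 0.64 TPM in EC. The endothelial markers summed to 17.64 TPM in untreated JuB2 and to 28.12 TPM in EC. The 7 fibroblast and smooth muscle markers summed to 769.36 TPM in untreated JuB2 and to 19962.28 TPM in EC. These values do not show the library labelled EC to be endothelial, so comparisons with it below are with that library as labelled. The fibroblast and smooth muscle sum lay between 388.23 and 425.36 TPM in the KDM2B-shRNA-labelled libraries and between 983.3 and 1004.18 TPM in scramble. The endothelial sum lay between 23.97 and 32.9 TPM in the KDM2B-shRNA-labelled libraries and between 9.53 and 14.61 TPM in scramble, with EGFL7 and KDR, the 2 markers tested, higher by 0.86 and 0.75 (limma adjusted p = 0.00459 and 0.00994). The part of either list in the results below was not tested. In bulk RNA fewer cells of a type and less RNA per cell cannot be told apart.

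With TPM as deposited, proteasome transcripts were more abundant in the KDM2B-shRNA-labelled libraries than in scramble, in both particles but not across the alpha ring. The median 20S rise was close to that of the typical gene, and the median 19S rise was larger. Of the 28 members tested 18 rose, 4 fell and 6 did not pass (limma, Benjamini-Hochberg adjusted p under 0.05 over all 11485 genes tested). In either direction 78.6% of members passed against 50.9% of all genes. Rises made up 64.3% of members against 33.3% of all genes, and falls 14.3% against 17.6%. The 20S and 19S members together made up 0.954 ± 0.00383% of all TPM in the KDM2B-shRNA-labelled libraries and 0.828 ± 0.00844% in scramble (SD, n = 3 each). The median log2 difference was 0.29 over the members and 0.16 over all genes tested, so the typical gene was higher too. By particle the median was 0.19 over the 20S members and 0.33 over the 19S members. Trimmed-mean scaling, which sets libraries by the middle of their log ratios and brings the median gene to 0.017, left 10 members higher, 5 lower and 13 not passing. Higher members were then 66.7% of the members called, against 81.8% with TPM as deposited. Over all 11485 genes tested, 2781 were then called higher and 2779 lower (24.2% each), against 3823 higher and 2027 lower as deposited. The differences were modest in size, between -0.69 for PSMA5 and 0.74 for PSMC1.

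**Figure D1:**
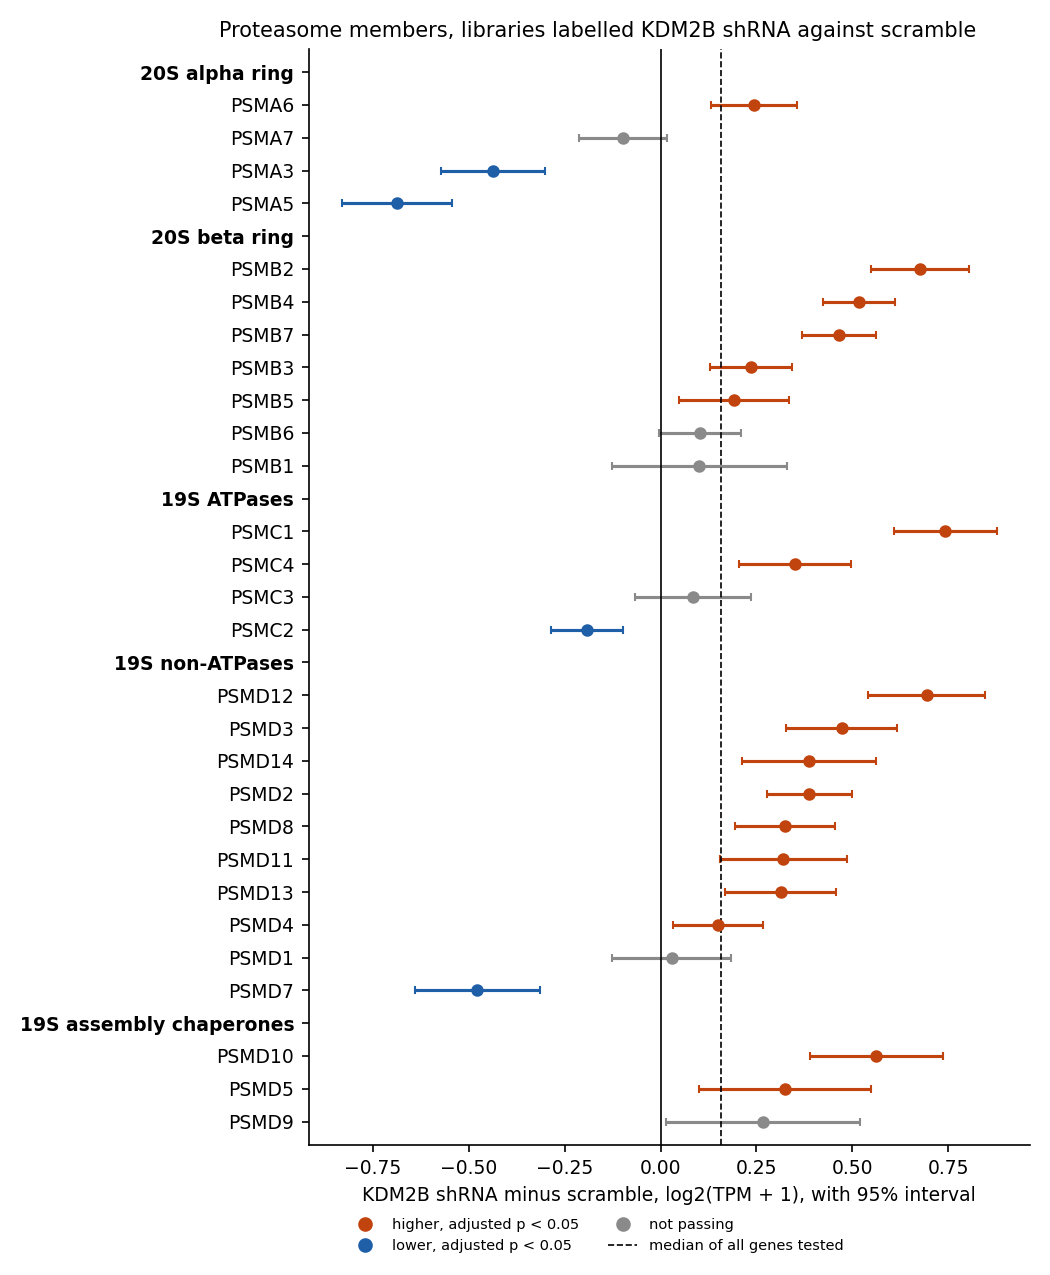
Difference between the KDM2B-shRNA-labelled libraries and scramble for the 28 tested members on the log2(TPM + 1) scale, as points with 95% intervals (n = 3 each), grouped by place in the proteasome; the dashed line is the median of all genes tested at 0.16. PSMA5, PSMA3, PSMD7, PSMC2 and the non-passing PSMA7 lie to the left of 0, and most beta ring and 19S members lie to the right of the dashed line.

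The alpha ring was split. Of its 4 tested genes, PSMA3 and PSMA5 fell, PSMA6 rose and PSMA7 did not pass. PSMA5 (ENSCAFG00000019833), a structural alpha subunit, was at 144.5, 143.62 and 137.81 TPM in the KDM2B-shRNA-labelled libraries and at 225.91, 245.21 and 217.45 TPM in scramble. All 3 lay far below every scramble library, a difference of -0.69 ± 0.06 (SE, limma adjusted p = 0.000132). PSMA3 (ENSCAFG00000015287), also a structural alpha subunit, was at 478.24, 519.32 and 543.11 TPM in the KDM2B-shRNA-labelled libraries and at 667.46, 696.79 and 719.85 TPM in scramble. The groups did not overlap and the difference was -0.44 ± 0.06 (SE, limma adjusted p = 0.000693).

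PSMA6 (ENSCAFG00000013409), another alpha subunit, went the other way and was at 613.51, 571.71 and 593.62 TPM in the KDM2B-shRNA-labelled libraries, against 521.69, 488.42 and 492.68 TPM in scramble. It rose by 0.24 ± 0.05 (SE, limma adjusted p = 0.00438), but with trimmed-mean scaling the difference was 0.087 and no longer passed (limma adjusted p = 0.134). PSMA7, the alpha subunit most like the testis form PSMA8, was at 486.28, 444.86 and 457.96 TPM in the KDM2B-shRNA-labelled libraries and at 487.31, 488.16 and 510.8 TPM in scramble. Its groups just failed to overlap, and its difference of -0.098 ± 0.05 did not pass (SE, limma adjusted p = 0.138), whereas it passed as lower with trimmed-mean scaling at -0.25 (limma adjusted p = 0.00445). Summed over these 4 genes, alpha transcripts were at 1712 ± 28.2 TPM in the KDM2B-shRNA-labelled libraries and 1921 ± 19.3 TPM in scramble (SD, n = 3 each).

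Most of the beta ring rose. Of its 7 genes 5 rose, PSMB1 and PSMB6 did not pass, and none fell in limma at an adjusted or an unadjusted p under 0.05. PSMB2 (ENSCAFG00000003543), a non-catalytic beta subunit, was at 472, 471.81 and 496.59 TPM in the KDM2B-shRNA-labelled libraries and at 282.24, 303.79 and 314.8 TPM in scramble. Every KDM2B-shRNA-labelled library was well above every scramble library, a 1.60-fold ratio of means and a log2 difference of 0.68 ± 0.06 (SE, limma adjusted p = 9.33e-05). PSMB4 (ENSCAFG00000012707), also non-catalytic and needed when the core is put together, had the highest level of any member in all 7 JuB2 libraries. It was at 1265.77, 1265.72 and 1320.18 TPM in the KDM2B-shRNA-labelled libraries and at 923.54, 893.1 and 871.85 TPM in scramble, and rose by 0.52 ± 0.04 (SE, limma adjusted p = 7.94e-05). PSMB3 rose by 0.24 ± 0.05 (SE, limma adjusted p = 0.0039), a call lost with trimmed-mean scaling (0.08, limma adjusted p = 0.134).

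The 3 catalytic subunits did not move alike. PSMB7 (ENSCAFG00000020224), which cuts after basic residues, was at 619.18, 607.77 and 610.44 TPM in the KDM2B-shRNA-labelled libraries and at 447.95, 452.24 and 430.62 TPM in scramble. It rose by 0.46 ± 0.04 (SE, limma adjusted p = 0.000128). PSMB5 (ENSCAFG00000011295), the chymotrypsin-like subunit and main target of proteasome inhibitor drugs, was at 746.76, 795.45 and 696.15 TPM in the KDM2B-shRNA-labelled libraries and at 662.44, 678.31 and 616.28 TPM in scramble. Its rise of 0.19 ± 0.06 passed narrowly (SE, limma adjusted p = 0.0325) and was lost with trimmed-mean scaling (0.037, limma adjusted p = 0.619). The PSMB5 call was also lost without library 1 labelled KDM2B shRNA (limma adjusted p = 0.0755), without library 2 so labelled (0.104), and without scramble library 1 (0.0589) or 3 (0.0978). PSMB6 (ENSCAFG00000015855), which cuts after acidic residues, was at 700.15, 719.59 and 750.89 TPM in the KDM2B-shRNA-labelled libraries and at 678.27, 691.7 and 650.78 TPM in scramble. The groups did not overlap, yet its difference of 0.10 ± 0.05 did not pass (SE, limma adjusted p = 0.0955), its 95% interval reached 0.21, and its sign turned to -0.053 with trimmed-mean scaling.

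PSMB1 (ENSCAFG00000004116), a non-catalytic subunit, was the least reproducible member of the ring, at 160.52, 179.98 and 211.69 TPM in the KDM2B-shRNA-labelled libraries and 164.23, 173.31 and 174.09 TPM in scramble. The groups overlapped, the difference was 0.10 ± 0.098 (SE, limma adjusted p = 0.424), and without library 3 so labelled it was -0.0043. Summed beta transcripts were at 4429 ± 53.9 TPM in the KDM2B-shRNA-labelled libraries and 3475 ± 76.9 TPM in scramble (SD, n = 3 each).

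**Figure D2:**
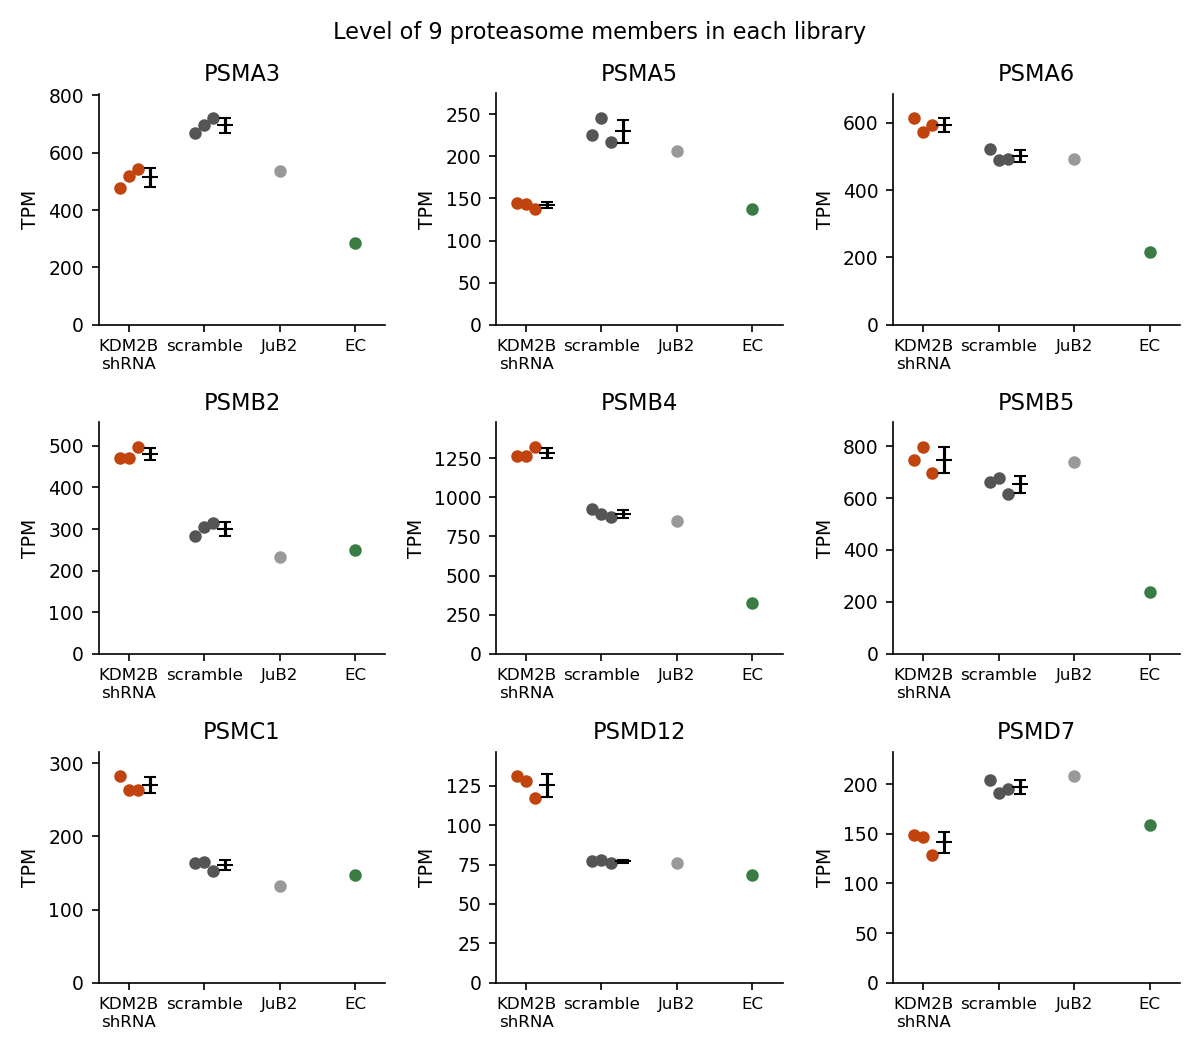
TPM of 9 members in each of the 8 libraries, with the mean and SD beside the groups of 3. PSMB2, PSMB4, PSMC1 and PSMD12 sit higher in all KDM2B-shRNA-labelled libraries than in scramble, PSMA3, PSMA5 and PSMD7 sit lower, and the library labelled EC (1 library) is lowest for PSMA3, PSMA5, PSMA6, PSMB4, PSMB5 and PSMD12.

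Among the 4 ATPases of the 19S base with a row, PSMC1 and PSMC4 rose, PSMC2 fell and PSMC3 did not pass. PSMC1 (ENSCAFG00000017510), an ATPase whose tail helps to open the core's gate, was at 282.15, 263.96 and 262.81 TPM in the KDM2B-shRNA-labelled libraries and at 163.99, 165.45 and 152.82 TPM in scramble. This was the largest rise of the 28 members, 1.68-fold between the means with a log2 difference of 0.74 ± 0.06 (SE, limma adjusted p = 8.08e-05). PSMC4 rose by 0.35 ± 0.06 (SE, limma adjusted p = 0.00285). PSMC2 (ENSCAFG00000004204) was the most abundant of these ATPases, at 395.3, 394.55 and 398.57 TPM in the KDM2B-shRNA-labelled libraries and at 448.57, 450.66 and 458.53 TPM in scramble. Replicates were tight, and it fell by 0.19 ± 0.04 (SE, limma adjusted p = 0.00561), a call lost only without an intensity trend in the variance (limma adjusted p = 0.057). PSMC3 had a difference of 0.085 ± 0.065 (SE, limma adjusted p = 0.308), with a 95% interval up to 0.24 and overlapping groups.

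Of the 10 tested non-ATPase subunits of base and lid 8 rose, PSMD7 fell and PSMD1 did not pass. PSMD12 (ENSCAFG00000011453), a structural lid subunit, was at 130.98, 127.7 and 117.05 TPM in the KDM2B-shRNA-labelled libraries and at 77.28, 77.72 and 75.85 TPM in scramble. It rose by 0.69 ± 0.07 (SE, limma adjusted p = 0.000165), with the groups far apart. PSMD3, a lid subunit, and PSMD2, a base scaffold that docks ubiquitin shuttles, rose by 0.47 ± 0.06 and 0.39 ± 0.05 (SE, limma adjusted p = 0.000665 and 0.000479).

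PSMD14 (ENSCAFG00000009963), the deubiquitinase of the lid, was at 166.14, 151.74 and 153.39 TPM in the KDM2B-shRNA-labelled libraries and at 111.18, 118.79 and 129.87 TPM in scramble, a rise of 0.39 ± 0.08 (SE, limma adjusted p = 0.00391). PSMD7 (ENSCAFG00000031831), the subunit that pairs with PSMD14 to form that enzyme's active module, was at 148.53, 146.35 and 128.91 TPM in the KDM2B-shRNA-labelled libraries and at 204.54, 190.67 and 195.07 TPM in scramble. These partners thus moved in opposite directions, PSMD7 by -0.48 ± 0.07 (SE, limma adjusted p = 0.00112), and both calls passed under all 18 alternatives.

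Lid subunits PSMD8, PSMD11 and PSMD13 rose by 0.33, 0.32 and 0.31 (limma adjusted p = 0.0024, 0.00747 and 0.00452), and with trimmed-mean scaling none of the 3 passed (limma adjusted p = 0.0531, 0.10 and 0.0518). PSMD4, a ubiquitin receptor, was at 340.56, 322.83 and 320.99 TPM in the KDM2B-shRNA-labelled libraries and at 305.6, 293.82 and 287.47 TPM in scramble. Its rise of 0.15 ± 0.05 barely passed (SE, limma adjusted p = 0.0378) and turned to -0.0055 with trimmed-mean scaling. The PSMD4 call was lost without any 1 library apart from scramble library 1 (limma adjusted p between 0.0561 and 0.107). PSMD1, the other large scaffold of the base, was at 71.5 ± 2.91 TPM in the KDM2B-shRNA-labelled libraries and 69.98 ± 1.78 TPM in scramble (SD, n = 3 each), a difference of 0.029 ± 0.067 (SE, limma adjusted p = 0.739) with a 95% interval up to 0.18.

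Of the 3 base chaperones with PSMD names 2 rose and PSMD9 did not pass. PSMD10 (ENSCAFG00000018007), known as gankyrin and as an oncoprotein in human liver cancer, was at 153.59, 143.27 and 161.83 TPM in the KDM2B-shRNA-labelled libraries and at 95.63, 107.17 and 106.84 TPM in scramble, a rise of 0.56 ± 0.07 (SE, limma adjusted p = 0.000668). PSMD5 rose by 0.33 ± 0.096 (SE, limma adjusted p = 0.0241). This PSMD5 call was lost with trimmed-mean scaling (limma adjusted p = 0.157) and without library 1 (0.0735) or 2 (0.0781) labelled KDM2B shRNA or scramble library 1 (0.0687) or 3 (0.0652). PSMD9 differed by 0.27 ± 0.11 (SE, limma adjusted p = 0.0735), and its groups did not overlap.

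Set side by side, the 19S members shifted slightly more than the 20S members. Of 11 tested 20S members 6 rose, 2 fell and 3 did not pass, and of 17 19S members 12 rose, 2 fell and 3 did not pass. Rises were 54.5% of the 20S and 70.6% of the 19S, against 33.3% of all genes. Falls were 18.2% and 11.8%, against 17.6% of all genes. The median log2 difference was 0.19 for the 20S and 0.33 for the 19S, beside 0.16 for all genes, a gap of -0.13 between the particles. Within the 20S the medians were -0.27 for the 4 PSMA genes and 0.24 for the 7 PSMB genes, so the spread inside the core was wider than the gap between core and cap. With trimmed-mean scaling 3 of the 11 members of the 20S were higher and 3 lower, where 24.2% of all genes were called in each direction. Of the 17 members of the 19S, 7 were higher and 2 lower. The scaled medians were 0.037 for the 20S, 0.17 for the 19S and 0.017 for all genes, so the 20S lay near the typical gene. In 25 of the 28 members the groups did not overlap, 20 higher (71.4%) and 5 lower (17.9%), where 38.3% and 20.9% of all genes were so placed. Together these are 89.3% of members and 59.3% of all genes.

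Summed 20S transcripts reached 6093, 6122 and 6208 TPM in the KDM2B-shRNA-labelled libraries and 5409, 5450 and 5328 TPM in scramble, a ratio of means of 1.14. Summed 19S transcripts reached 3461, 3377 and 3364 TPM in the KDM2B-shRNA-labelled libraries and 2893, 2894 and 2853 TPM in scramble, a ratio of 1.18. Both sums were higher in each KDM2B-shRNA-labelled library than in any scramble library. The 20S over 19S ratio was 1.81 ± 0.0429 in the KDM2B-shRNA-labelled libraries and 1.87 ± 0.00844 in scramble (SD, n = 3 each). Mitochondrially encoded genes held 12.04 ± 0.646% of all TPM in the KDM2B-shRNA-labelled libraries and 18.1 ± 0.786% in scramble, which leaves more of the total to every nuclear gene. Rescaling without them gave 15 members higher and 5 lower, 53.6% and 17.9%, where 27.2% and 21.7% of the 11472 genes then tested were called.

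**Figure D3:**
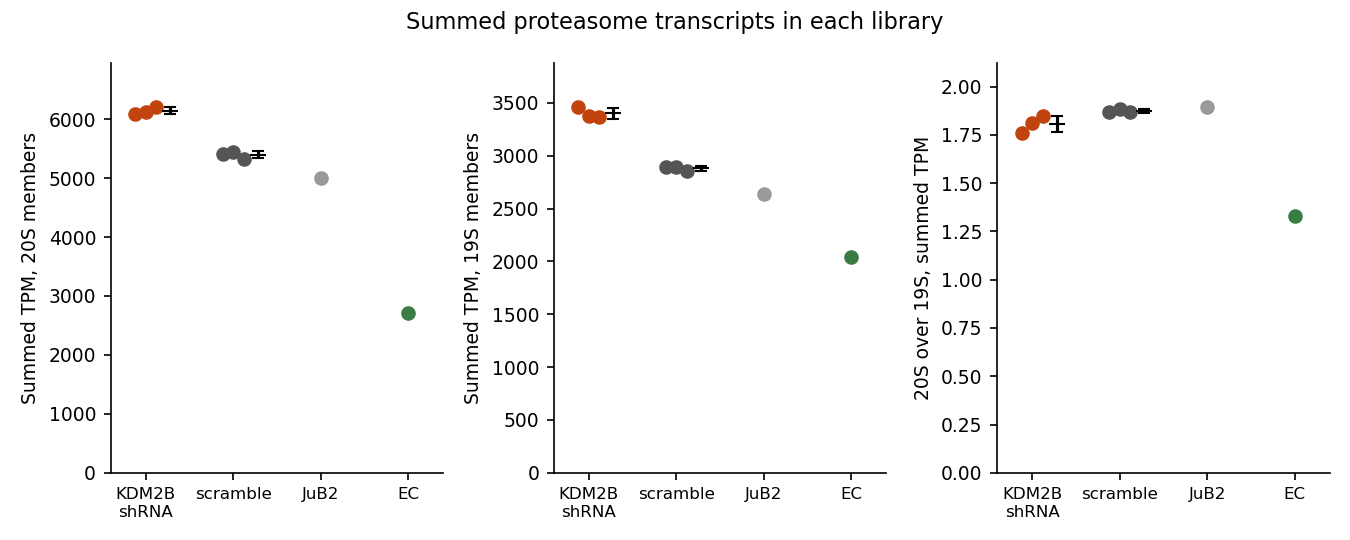
Summed TPM of the 11 tested 20S members and of the 17 19S members, and the ratio of these sums, in each library, with mean and SD beside the groups of 3; all axes start at 0. Both sums are highest in the KDM2B-shRNA-labelled libraries and lowest in the library labelled EC, whose ratio of 1.33 is below that of the JuB2 libraries.

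Scramble libraries held more proteasome transcript than untreated JuB2. The sums were between 5328 and 5450 TPM for the 20S and between 2853 and 2894 TPM for the 19S in scramble, against 5001 and 2639 TPM in untreated JuB2. Of the 28 members 21 were higher in every scramble library than in untreated JuB2 (75.0%), where 31.8% of all genes tested were. For 14 members all KDM2B-shRNA-labelled libraries lay above all scramble libraries and all scramble libraries above untreated JuB2, 50.0% of members where 11.7% of all genes tested had this order. PSMB2 was 1 of these, with 300.3 ± 16.6 TPM in scramble (SD, n = 3) and 233.61 TPM in untreated JuB2. PSMB5, PSMD7 and PSMD10 had the opposite place, at 738.88, 207.79 and 124.38 TPM in untreated JuB2, above every scramble library. They are 10.7% of the members, where 32.4% of all genes had this place. For PSMB5 untreated JuB2 thus fell within the range of the KDM2B-shRNA-labelled libraries. With 1 untreated library these placings have no test.

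With TPM as deposited, untreated JuB2 held more 20S transcript than the library labelled EC, and its 19S transcripts were closer to that library. With trimmed-mean scaling the median member difference was -0.0053, and neither the particles nor all genes were compared on that scale. With a floor of 10 TPM for the higher value, 8 of 28 were at least 2-fold higher in untreated JuB2 on the log2(TPM + 1) scale (28.6%) and 0 were at least 2-fold lower, where 26.2% and 13.7% of all 8805 genes compared were so placed. Each side is 1 library, so no test was possible and differences have no replicate check. The share of members at least 2-fold higher was thus close to that of all genes. The 8 were 5 of 11 members of the 20S (45.5%) and 3 of 17 of the 19S (17.6%), beside 26.2% of all genes compared. Median differences were 0.91 for the 20S, 0.25 for the 19S and 0.34 for all genes compared. The 20S over 19S ratio of summed TPM was 1.90 in untreated JuB2 and 1.33 in EC.

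PSMB5 showed the largest such gap in the 20S, at 738.88 TPM in untreated JuB2 and 239.44 TPM in EC. PSMB4 was at 848.72 TPM in untreated JuB2 and 327.52 TPM in EC, and PSMA6, PSMA7 and PSMB6 were the other 20S members past 2-fold. PSMB1 ran against them at 154.61 TPM in untreated JuB2 and 299.28 TPM in EC. In the 19S, PSMD10 was at 124.38 TPM in untreated JuB2 and 37.97 TPM in EC, and PSMC2 was at 441.3 TPM in untreated JuB2 and 167.35 TPM in EC. PSMD4, the ubiquitin receptor, was at 233.78 TPM in untreated JuB2 and 95.79 TPM in EC. For 18 of the 28 members the library labelled EC was the lowest of all 8 (64.3%), as it was for 49.7% of the genes of the shRNA test. After trimmed-mean scaling of these libraries 4 members were at least 2-fold higher in untreated JuB2 and 1 lower, and the median log2 difference of the members was -0.0053. The share of all genes so placed on that scale was not computed, so these counts cannot be set beside the typical gene.

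**Figure D4:**
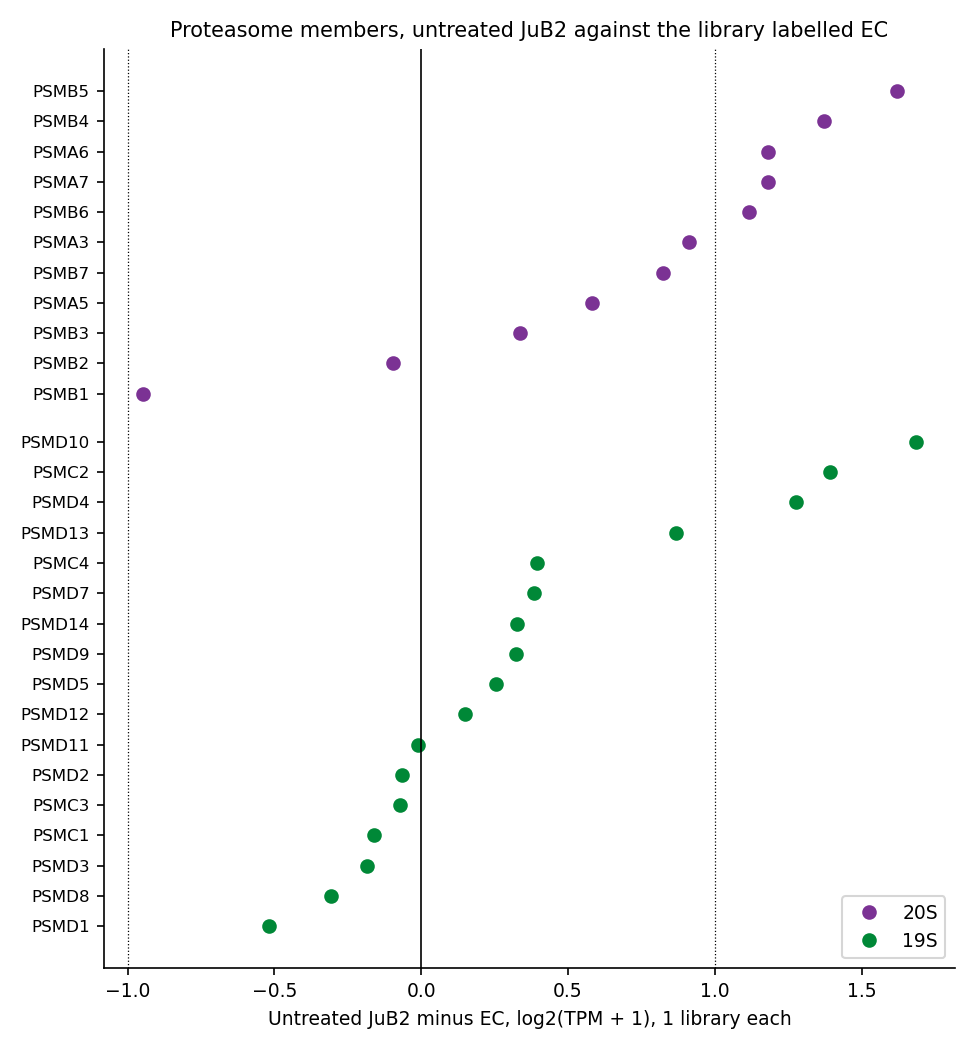
Difference between untreated JuB2 and the library labelled EC for the 28 members on the log2(TPM + 1) scale, 1 library each, sorted within the 20S and the 19S; dotted lines mark 2-fold. PSMB5 and PSMD10 lie farthest to the right in their particles, and PSMB1 and PSMD1 farthest to the left.

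The order of abundance among the members was largely kept between groups. Every member tested stood between 37.97 and 1320.18 TPM in all libraries, with 20S members from 137.25 TPM upward and 19S members up to 458.53 TPM. Across the 28 members the rank correlation of mean TPM between KDM2B-shRNA-labelled libraries and scramble was 0.94, and between untreated JuB2 and EC it was 0.81. These are descriptions across genes of shared libraries, and genes are not independent replicates. PSMB4 was the most abundant member in each JuB2 library and PSMD8, a lid subunit, in the library labelled EC (349.48 TPM).

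Genes that build, cap and feed the proteasome did not all follow the members in the KDM2B-shRNA-labelled libraries. The counts for these short lists stand beside 33.3% of all genes tested that rose and 17.6% that fell. ADRM1, a ubiquitin receptor of the 19S that the naming rule misses, was at 504.6 ± 21.9 TPM in the KDM2B-shRNA-labelled libraries and 348.9 ± 15.2 TPM in scramble (SD, n = 3 each), a rise of 0.53 ± 0.05 (SE, limma adjusted p = 0.000216). Of the 3 tested chaperones of the 20S core, PSMG3 and PSMG2 rose and PSMG1 did not pass. PSMG3, which helps to build the alpha ring, was at 75.98, 67.26 and 54.6 TPM in the KDM2B-shRNA-labelled libraries and at 22.19, 25.57 and 30.24 TPM in scramble. That rise of 1.31 ± 0.15 (SE, limma adjusted p = 0.000374) exceeded that of any member.

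Of 5 genes for alternative caps and an inhibitor, PSME1 and PSME2 fell and PSME3, PSME4 and the inhibitor PSMF1 did not pass. PSME1 and PSME2 encode an interferon-inducible activator ring that replaces the 19S on some cores. PSME1 was at 47.36, 43.92 and 50.03 TPM in the KDM2B-shRNA-labelled libraries and at 109.12, 96.41 and 86.68 TPM in scramble, and fell by 1.03 ± 0.0997 (SE, limma adjusted p = 0.000178). PSME2 fell by 0.31 ± 0.099 (SE, limma adjusted p = 0.0333). The inducible core subunits were scarce. PSMB10 was at 13.8 ± 2.82 TPM in the KDM2B-shRNA-labelled libraries and 15.5 ± 4.92 TPM in scramble (SD, n = 3 each) and did not pass (limma adjusted p = 0.677), and PSMB9 was under 2 TPM in the JuB2 libraries and at 7.57 TPM in EC.

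Enzymes and shuttles that bind the proteasome were split, with 3 higher, 3 lower and 2 not passing of 8. USP14, a deubiquitinase of the 19S, rose by 0.56 ± 0.07 (SE, limma adjusted p = 0.000425), and the shuttle UBQLN1 by 0.33 ± 0.06 (limma adjusted p = 0.0039). In the same list UCHL5 fell by 0.31 ± 0.09 and RAD23B by 0.22 ± 0.07 (SE, limma adjusted p = 0.0287 and 0.0408). ECPAS, whose yeast form links core and cap, was at 14.08, 12.69 and 11.6 TPM in the KDM2B-shRNA-labelled libraries and at 28.77, 26.75 and 26.34 TPM in scramble. It fell by 1.04 ± 0.11 (SE, limma adjusted p = 0.000247).

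NFE2L1, the factor that drives proteasome genes when proteasome activity is short, did not rise with them. It was at 72.7 ± 1.61 TPM in the KDM2B-shRNA-labelled libraries and 84.2 ± 2.61 TPM in scramble (SD, n = 3 each), a difference of -0.21 ± 0.06 (SE, limma adjusted p = 0.0262). Transcripts of genes known to act on its protein were higher, while the protein and its activity were not measured. VCP, which extracts proteins from the endoplasmic reticulum, was at 283.7 ± 5.62 TPM in the KDM2B-shRNA-labelled libraries and 178.04 ± 11.8 TPM in scramble, a rise of 0.67 ± 0.06 (SE, limma adjusted p = 0.000135). NGLY1, which strips its sugars, rose by 0.67 ± 0.17 (limma adjusted p = 0.0124), and DDI2, the protease that cuts it and also a shuttle of the list above, by 0.48 ± 0.12 (limma adjusted p = 0.013). Its small MAF partners MAFF and MAFK rose by 1.999 ± 0.269 and 0.93 ± 0.13 (SE, limma adjusted p = 0.000718 and 0.00097). MAFF was at 63.66, 31.02 and 33.49 TPM in the KDM2B-shRNA-labelled libraries and at 10.2, 7.57 and 10.64 TPM in scramble. In untreated JuB2 MAFF was at 25.25 TPM, above every scramble library. Over the 8 genes of this list 5 rose, NFE2L1 and NFE2L2 fell and MAFG did not pass. Of all genes tested 33.3% rose and 17.6% fell, and a joint change of this list was not tested.

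On the supply side, UBB, a polyubiquitin gene, was at 6225 ± 124 TPM in the KDM2B-shRNA-labelled libraries and 3831 ± 254 TPM in scramble (SD, n = 3 each), a rise of 0.70 ± 0.05 (SE, limma adjusted p = 5.42e-05). RPS27A, which encodes ubiquitin fused to a ribosomal protein, fell by 0.32 (limma adjusted p = 0.000313). UBA1, the main ubiquitin-activating enzyme, was at 246.09, 233.67 and 232.73 TPM in the KDM2B-shRNA-labelled libraries and at 141.43, 136.66 and 136.03 TPM in scramble. It rose by 0.78 ± 0.05 (SE, limma adjusted p = 4.96e-05), while UBA6, the alternative activating enzyme, fell by 0.35 ± 0.08 (limma adjusted p = 0.0111). Over the 4 other scalings tried, the calls of the pathway genes outside the members stayed as given except for PSMG2, lost under all 4 (limma adjusted p from 0.0601 to 0.139), DDI2, lost with quantile normalization (0.0518), and PSMF1, lower with either trimmed mean (0.0423 and 0.0441).

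**Figure D5:**
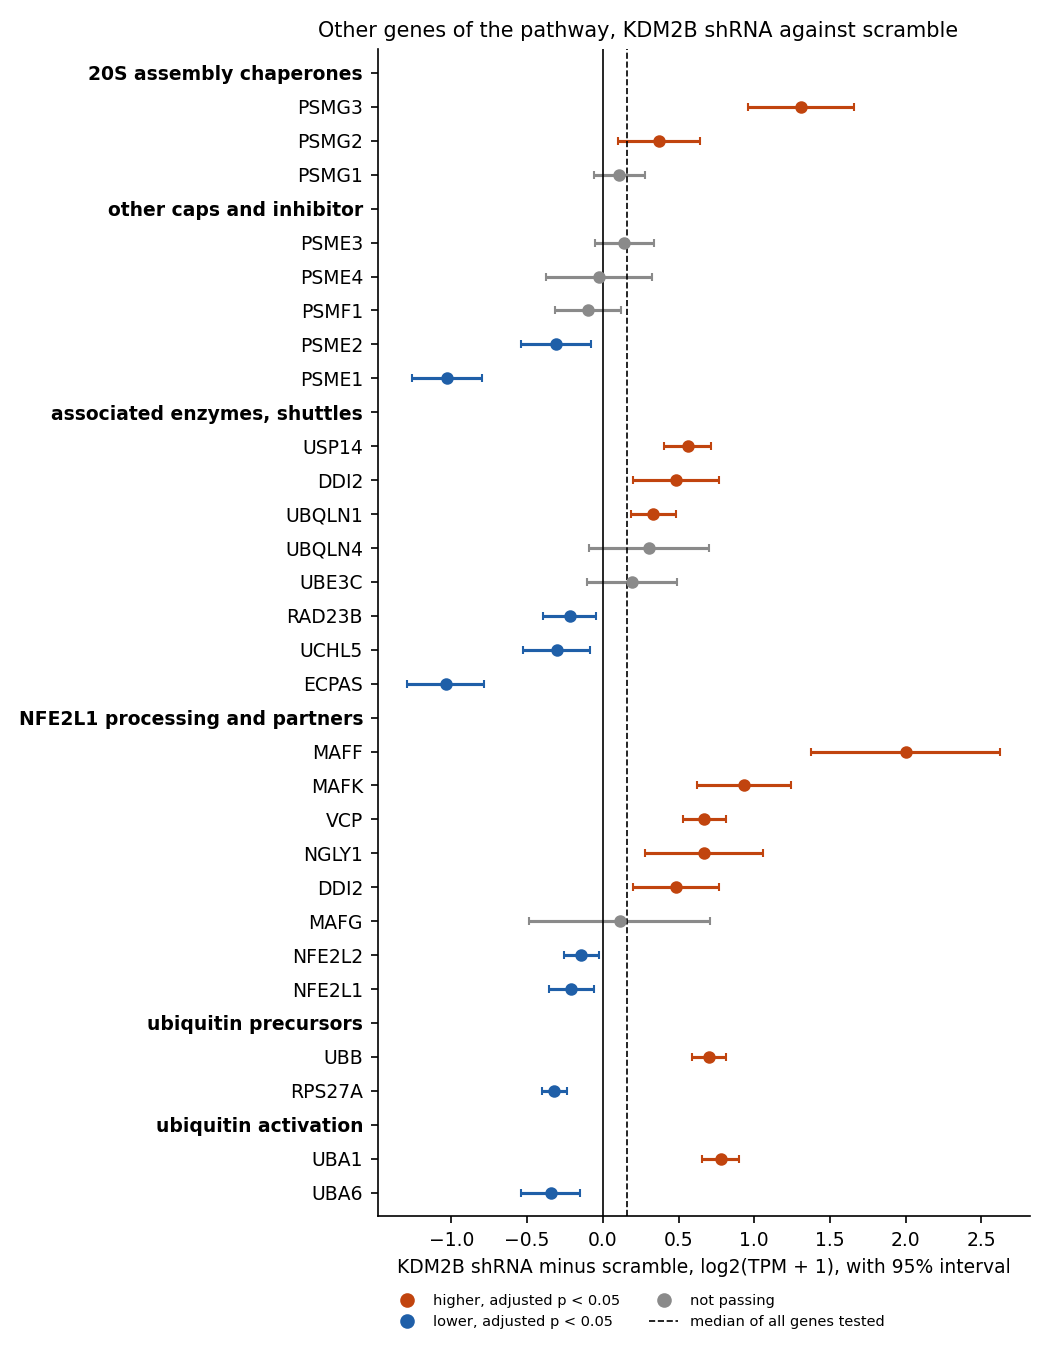
Difference between the KDM2B-shRNA-labelled libraries and scramble for other genes of the pathway on the log2(TPM + 1) scale, as points with 95% intervals (n = 3 each); the dashed line is the median of all genes tested. PSMG3, MAFF, MAFK, UBA1 and UBB lie to the right, and PSME1 and ECPAS lie farthest to the left.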

How the data were processed

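The deposited table holds 1 TPM value per gene and library, computed by the authors. Per the submitters' processing notes STAR, RSEM and the build CanFam3.1 were used, and no version or role is stated. Strandedness, filters and the assignment of reads shared with pseudogenes or paralogs are unknown here. The reference table is of another build, so no coordinates are printed.

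For the shRNA contrast all 11485 genes that reached 1 TPM in 3 or more of its 6 libraries were tested on log2(TPM + 1), a scale that understates folds of low genes, by limma 3.58.1 (R 4.3.3) with an intensity trend, Benjamini-Hochberg adjustment and a 0.05 threshold. The test was tried on simulated data. Untreated JuB2 and EC have 1 library each and no test. Members, sub-complexes and lists were chosen with earlier results of these data known. All members may be named. Full statistics went to the 3 largest and 3 smallest differences per particle and the catalytic subunits, and up to 4 genes with the smallest p were named per further list. Other members described in full, and further genes named from those lists such as NFE2L1 and DDI2, were chosen after their values were seen. Some genes of the further lists are not reported here. TPM hold no depth, so no counting interval was computed. Alternatives were other scalings, filters, pseudocounts, variance priors and sets of libraries, and a replicate block. Figures were drawn with matplotlib 3.10.9.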

Additional observations from a re-analysis of the deposited data

How the results depend on the processing

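Of the 22 calls among members, 13 passed under all 18 alternatives tried for single members (10 higher, 3 lower) and 19 passed in all 6 fits that left out 1 library. With 30% trimmed-mean scaling 10 members were higher, 3 of the 20S and 7 of the 19S, and 5% trimming gave 3 higher in the 20S. Of all genes tested 2781 were higher with 30% and 2803 with 5% trimming. Without an intensity trend 1 member of the 19S was lower, as were 1905 of all genes tested. The median member, 0.29 in TPM as deposited, was 0.14 with either trimming, 0.18 with quantile normalization and 0.19 without mitochondrially encoded genes. The median of all genes tested, 0.16 as deposited, was 0.017 with 30% and 0.019 with 5% trimming, 0.019 with quantile normalization and 0.065 without mitochondrially encoded genes. The 20S minus 19S gap, -0.13, was -0.20 with quantile normalization. Leaving out 1 library gave 15 to 17 members higher and 4 lower. Over all 11485 genes tested those fits called 3207 to 3480 higher and 1685 to 1853 lower. In the 20S they gave 5 to 6 members higher and 2 lower, and in the 19S 10 to 11 higher and 2 lower. Medians of the members were 0.26 to 0.30 and gaps were -0.20 to -0.11 (-0.20 without library 2 labelled KDM2B shRNA).

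Signs turned for 5 members, of which PSMD4 had passed. With 30% trimming, 5% trimming, quantile normalization and rescaling without mitochondrially encoded genes, PSMB1 was at -0.054, -0.051, -0.037 and -0.0025, PSMB6 at -0.053, -0.049, -0.057 and -0.00069, PSMC3 at -0.069, -0.066, -0.016 and -0.018, and PSMD1 at -0.12, -0.12, -0.071 and -0.073. PSMD4 was at -0.0055 and -0.0020 with the trimmings. Leaving out 1 library gave -0.0043 to 0.19 for PSMB1 (lowest without library 3 labelled KDM2B shRNA) and -0.0036 to 0.048 for PSMD1 (lowest without library 1 so labelled). For untreated JuB2 minus EC, trimmed scaling gave 4 members higher, 1 lower and a median of -0.0053, with no share of all genes computed on that scale. Without the 3 base chaperones, an alternative chosen after seeing the data, 10 of the 14 members of the 19S were higher and 2 lower. Over all genes tested 33.3% were higher and 17.6% lower.

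Same-numbered libraries did not deviate together (correlations of 0.034, 0.012 and -0.046), and with the replicate number as a block 18 members were higher and 4 lower, while the counts over all genes were 3578 higher and 1870 lower.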
